A study of Mus musculus with 6 samples.

Results

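The genes described here are 40 mouse genes of cell adhesion, made up of 26 integrin subunits (18 α and 8 β) and 14 proteins that bind to integrins on the cytoplasmic side. They were chosen by name from the 56884 genes of the mouse count table and were placed in 7 role classes. A total of at least 10 counts over 6 libraries was reached by 37 of them, and 18018 genes of the whole table passed the same filter. Itgad (αD) and Ilk (integrin-linked kinase) had 0 counts in every library, and Itgb6 (β6) had 4 counts in all.

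RNA was sequenced from liver of male athymic BALB/c (nu/nu) mice, 6 weeks of age, into which human HCC cells had been implanted. All mice thus carried a human tumor and lacked a normal T cell compartment. At 1 week after implantation both groups received adeno-associated virus 8 (AAV8) by tail vein, carrying either a control siRNA (siControl, genotype WT in the labels) or an siRNA against mouse Aatf (siAATF, genotype KD), and they were followed for another 3 weeks. The siRNA was under the TBG promoter, which is active in hepatocytes and not in the stromal or blood cells that carry many of the integrins below. Each group had 3 libraries, and the comparison addressed how silencing of Aatf in the host liver altered the tissue around the tumor.

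The depth of the mouse data differed strongly between the groups. Mouse counts were 213022 to 913584 in siControl and 11835898 to 42563694 in siAATF, which was 0.778% to 1.93% and 97.9% to 99.0% of all human and mouse gene counts. Levels are given in CPM, counts per 1000000 mouse counts after TMM scaling, which multiplies each library total by a factor for its composition, unless stated otherwise. A count of 0 allows up to 3 counts in a library, a limit of 1.67 to 7.25 CPM for siControl libraries and 0.104 to 0.605 CPM for siAATF libraries on this scale, counting error only. Mouse Aatf itself was not lower in the libraries labelled siAATF, at 12, 1 and 23 counts in the siControl libraries and 384, 109 and 340 counts in the siAATF libraries (log2 fold change 0.93 ± 0.47 SE, adjusted p = 0.152, edgeR with Benjamini-Hochberg adjustment), so siControl and siAATF below name the labels of the libraries. Summed markers of hepatocytes, the cells of the labelled tissue, were 2309 to 7175 CPM in siControl and 49226 to 102141 in siAATF, with all 8 genes detected in both groups. Whether the labels, the amount of tumor in each sample or the cell types taken gave any difference below cannot be told apart.

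Integrins are receptors made of an α and a β subunit, and the pair decides whether a cell binds collagen, laminin, proteins with an RGD sequence such as fibronectin and vitronectin, or ligands on other cells. Talins and kindlins bind the short cytoplasmic tail of the β subunit and switch the receptor to its high affinity state, after which paxillin, vinculin, focal adhesion kinase, parvins, tensins, zyxin and filamins couple it to actin. In the liver, hepatocytes, endothelial cells and stellate cells use β1 and αv integrins, and blood-derived cells use β2 and β7 integrins.

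The stretch of β tail that talins and kindlins bind is shown for the 6 β subunits in which it was found, since these subunits share the activators described below. The last 60 codons of the coding sequence (GRCm39, GENCODE transcripts) were searched for the codons of Asn, Pro, any residue and then Tyr or Phe. These were found in 6 of 8 β subunits and not in Itgb4 or Itgb8. From there on, a search for Asn, any pair of residues and then Tyr or Phe found 2 sites in each of the 6. Itgb4 and Itgb8 were not searched for this looser form. The coding sequence of Itgb4 is longer (1752 codons), so its last 60 may not hold this stretch. Each stretch runs 5′ to 3′ on the coding strand from the membrane-proximal site to the distal one, and capitals mark the 4 codons of each site.
Itgb1 (chr8:129458510-129458557): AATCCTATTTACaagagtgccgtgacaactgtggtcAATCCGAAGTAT
Itgb2 (chr10:77401015-77401062): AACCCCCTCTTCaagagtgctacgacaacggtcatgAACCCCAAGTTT
Itgb7 (chr15:102124649-102124696, minus strand): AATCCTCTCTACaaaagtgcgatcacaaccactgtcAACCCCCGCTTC
Itgb3 (chr11:104557912-104557959): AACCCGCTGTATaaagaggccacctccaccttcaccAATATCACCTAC
Itgb6 (chr2:60430874-60430921, minus strand): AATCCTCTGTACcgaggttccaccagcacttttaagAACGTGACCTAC
Itgb5 (chr16:33769033-33769104): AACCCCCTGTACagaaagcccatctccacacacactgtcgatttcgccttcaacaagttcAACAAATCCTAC
Against the 48 bases of Itgb1, the stretch of Itgb2 was identical at 33 positions, Itgb7 at 31, Itgb6 at 25 and Itgb3 at 23, while that of Itgb5 was longer (72 bases). The subunits of leukocytes, Itgb2 and Itgb7, thus shared more of the Itgb1 sequence here than the RGD-binding subunits Itgb3 and Itgb6 did.

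Of the 37 adhesion genes tested, 18 fell in siAATF and none rose at an adjusted p under 0.05 (edgeR quasi-likelihood test, Benjamini-Hochberg adjustment over all genes tested). Over all 18018 genes, 14.4% were called lower and 17.6% higher. The genes on the higher side with an unadjusted p under 0.05 were Itga7 and Fermt2, and Fermt2 was called higher by both DESeq2 and limma-voom. By the study's rule, an unadjusted p under 0.05 with an absolute log2 fold change of at least 2, 15 were lower and none higher, against 13.1% and 13.6% of all genes. Itga3, Itga2b, Itga5, Itgb1 and Pxn were not called by that rule, since their changes were smaller than 2, and Itga10 and Itgb8 were. The median log2 fold change was -1.50 over the adhesion genes and 0.50 over all genes tested. CPM values of the groups did not overlap for 23 genes that were lower and 2 that were higher in siAATF, against 18.1% and 34.5% of all genes. The filter took counts over all libraries, so genes near 0 in siControl could pass through siAATF alone, which can add to the 34.5%. With at least 10 counts in every library, 24.6% of 3552 genes were called lower and 24.5% higher, and 10 and 1 of 17 adhesion genes. The 40 genes together took 2718, 1025 and 4469 counts of siControl libraries 1 to 3 and 26931, 5578 and 20002 of siAATF libraries 1 to 3.

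These directions hold relative to other mouse RNA. Taken as CPM of all human and mouse counts, with no TMM scaling, the summed adhesion genes were at 74.4, 37.4 and 82.7 in siControl and at 627, 461 and 565 in siAATF (64.9 ± 24.1 and 551 ± 83.6, SD, n = 3 each). Against mouse counts alone, also with no TMM scaling, the siControl sums came to 3865, 4812 and 4892 CPM and the siAATF sums to 633, 471 and 572 CPM. Both differences left the groups without overlap, in opposite directions. With libraries scaled to all human and mouse counts, 25 adhesion genes were called higher and 1 lower, and the median of all genes moved to 4.66. Itgam, Itgax, Itgb2, Itga11, Itga6 and Parvg then still had fitted values below 0, of which that of Itgam was the one called. In bulk tissue, fewer cells of a type and less RNA per cell cannot be told apart.

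**Figure D1:**
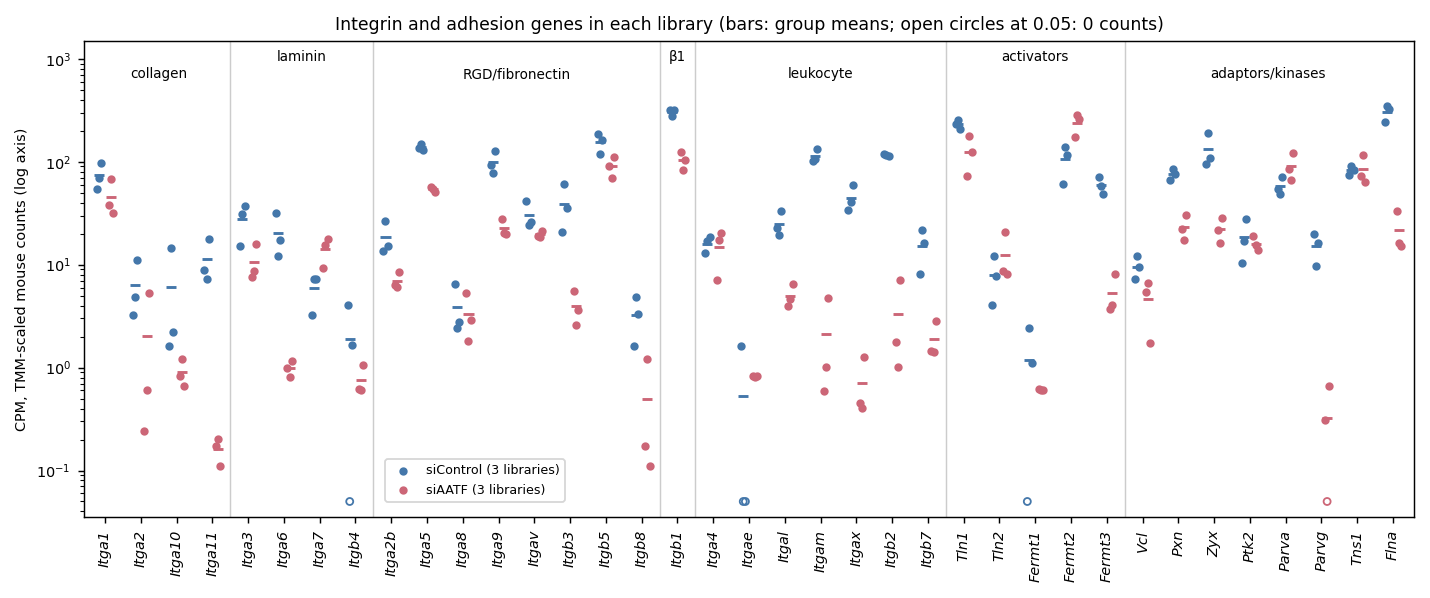
CPM of TMM-scaled mouse counts (log axis) of the 37 tested genes in each of 3 siControl and 3 siAATF libraries, grouped by role class, with bars at the group means and open circles at the foot of the axis for libraries with 0 counts. Itgam, Itgax, Itgb2, Itga11, Itga6 and Parvg show the widest gaps, and Fermt2 and Itga7 are the genes with every siAATF library above every siControl library.

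The 8 leukocyte receptor subunits formed the class with the lowest median, at -2.91 on the log2 scale, and 5 of the 7 tested fell. Itgb2 (chr10:77366086-77401520), the β2 chain shared by the leukocyte integrins and the member of the class with the highest mean level per full gene length in siControl (in siAATF Itga4 was above it), had 119, 116 and 114 CPM in siControl and 1.76, 1.01 and 7.10 in siAATF. Its siControl libraries lay within a narrow range, and siAATF library 3 stood above the other siAATF libraries. The log2 fold change was -5.08 ± 0.65 SE (adjusted p = 0.000132, edgeR with Benjamini-Hochberg adjustment) and -6.22 without siAATF library 3. Itgax (αX, or CD11c, of dendritic cells and macrophages, chr7:127728719-127749829) had 33.7, 41.1 and 59.1 CPM in siControl and 0.449, 0.403 and 1.28 in siAATF. It fell by 5.88 on the log2 scale (SE 0.54, adjusted p = 2.58e-05, edgeR with Benjamini-Hochberg adjustment), and by more (-6.58) without siAATF library 3.

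The other members of this class are named after their values were seen. Itgam (αM, or CD11b, of myeloid cells, chr7:127661812-127717663) had 103, 106 and 133 CPM in siControl and 0.587, 1.01 and 4.77 in siAATF, a log2 fold change of -5.69 ± 0.72 SE that became -7.22 without siAATF library 3. Of its exon bases, 70.0% were shared with Gm49368 on the same strand. Gm49368 had almost no counts of its own, which does not show that reads in the shared bases were given to Itgam. Levels of Itgam per length may thus be too low. Itgb7, the partner of α4 and αE in gut homing, fell by 2.91 (SE 0.56). Itgal (αL, the α chain of LFA-1) fell by 2.35 (SE 0.40), with 22.5, 19.3 and 32.9 CPM in siControl and 3.97, 4.64 and 6.43 in siAATF. Itga4, the α chain of VLA-4, had overlapping levels of 12.8, 16.9 and 18.4 CPM in siControl and 7.18, 17.3 and 20.2 in siAATF (log2 fold change -0.11 ± 0.46 SE, adjusted p = 0.879, edgeR with Benjamini-Hochberg adjustment). Itgae (αE) reached 2 counts over the siControl libraries and 43 over the siAATF libraries, a ratio of 1.43 after scaling with an exact 95% counting interval of 0.372 to 12.2. The myeloid chains Itgam and Itgax with their partner Itgb2 thus had changes past 5 log2 units, and Itga4 and Itgae none that passed the test.

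Genes that mark other blood cells moved with this class. The 6 pan-leukocyte genes (Ptprc, Cd53, Laptm5, Coro1a, Cd52 and Lcp1) all fell and summed to 1358 to 1426 CPM in siControl and 45.8 to 109 in siAATF, and the 7 macrophage genes all fell and summed to 1406 to 4562 and 104 to 175 CPM. Summed neutrophil genes were at 90.7 to 1892 CPM in siControl, lowest in library 1, and 2.22 to 137 in siAATF, highest in library 3. None of the 4 Kupffer cell genes was called, and their sums overlapped (16.9 to 108 and 77.5 to 132 CPM). T and NK cell genes summed to 2.42 to 23.4 and 0.403 to 2.16 CPM. The part of these cells in the values of the integrins was not tested.

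Set against the summed counts of the pan-leukocyte genes in the same library, the leukocyte adhesion genes did not keep constant ratios. Itgam stood at 0.0757, 0.0761 and 0.0931 counts per marker count in siControl and at 0.00602, 0.0220 and 0.0438 in siAATF. The ratio of Itgax was 0.0319 ± 0.00859 and 0.00838 ± 0.00358 (SD, n = 3 each) and that of Itgb2 0.0834 ± 0.00386 and 0.0351 ± 0.0262. The siAATF ratios of Itgb2 were 0.0181, 0.0220 and 0.0652, so library 3 stood apart, nearer to siControl. For Itgam, Itgax and Itgb2 every siAATF library was below every siControl library. Itga4 went the other way, from 0.00946, 0.0121 and 0.0129 in siControl to 0.0737, 0.379 and 0.185 in siAATF, and so did Itgal, with 0.0178 ± 0.00475 and 0.0670 ± 0.0311. Fermt3 overlapped between the groups (0.0426 ± 0.00885 and 0.0666 ± 0.0259, exact permutation p = 0.3). Each of the other 5 ratios gave the smallest two-sided exact permutation p of 0.1 that 3 against 3 libraries allow, so none of the 6 could pass 0.05. The leukocyte subunits summed to 9.16 ± 3.87 CPM of all human and mouse counts in siControl and to 14.7 ± 6.47 in siAATF, with overlap.

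**Figure D2:**
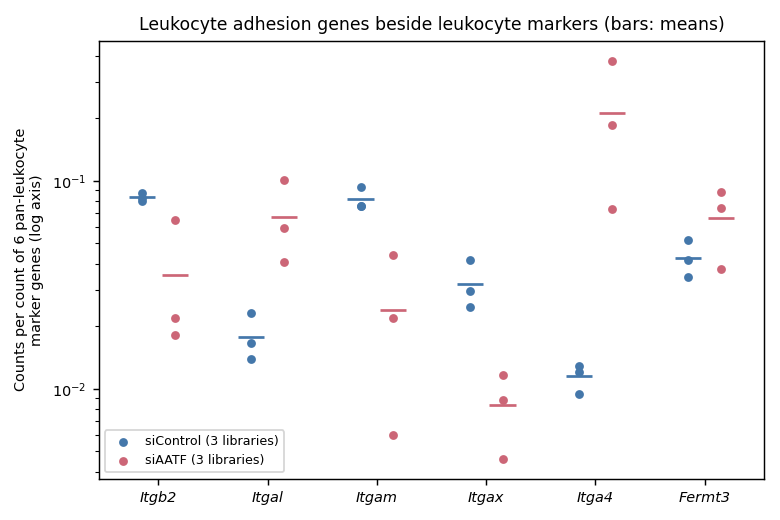
Counts of Itgb2, Itgal, Itgam, Itgax, Itga4 and Fermt3 per count of 6 pan-leukocyte marker genes in the same library (log axis), with 3 libraries per group and bars at the means. Itgb2, Itgam and Itgax lie lower in siAATF, Itgal and Itga4 lie higher, and Fermt3 overlaps.

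The promoters of Itgam and Itgax are shown because these neighbours on chromosome 7 had the largest changes of the class. Each is the 300-base RefSeq window, 250 bases before and 50 after the gene start, taken from a GRCm38.p6 table and found once, unaltered, in GRCm39, on the plus strand. Capitals mark matches to GAGGAA or its reverse complement TTCCTC, a form bound by ETS factors such as PU.1 that is longer than the ETS core GGAA.
Itgam (chr7:127661562-127661861): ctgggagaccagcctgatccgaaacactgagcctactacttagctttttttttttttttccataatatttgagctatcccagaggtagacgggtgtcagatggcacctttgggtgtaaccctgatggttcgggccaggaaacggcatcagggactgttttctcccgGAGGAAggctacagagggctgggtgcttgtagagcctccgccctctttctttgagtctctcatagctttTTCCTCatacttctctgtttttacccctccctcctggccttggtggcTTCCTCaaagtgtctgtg
Itgax (chr7:127728472-127728771): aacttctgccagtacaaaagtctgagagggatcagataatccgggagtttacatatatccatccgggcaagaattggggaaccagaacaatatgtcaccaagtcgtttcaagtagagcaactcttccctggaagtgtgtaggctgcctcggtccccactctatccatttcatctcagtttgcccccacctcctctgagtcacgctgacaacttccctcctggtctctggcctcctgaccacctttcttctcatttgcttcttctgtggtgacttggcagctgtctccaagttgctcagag
Itgam held 3 matches and Itgax none, though Itgax does hold the shorter core letters, left in lower case. A promoter was matched for 28 of the 40 genes, and 11 of their 32 windows (34.4%) held the letters, against 28.3% of all 32851 windows in the table. A match is a description of these letters only.

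Of the 4 collagen receptor α subunits, 1 fell, beside 14.4% of all genes, and the median log2 fold change was -2.08. Itga11 (α11, a fibrillar collagen receptor of fibroblasts, chr9:62585108-62691264) had 8.83, 7.25 and 17.8 CPM in siControl, from 11, 3 and 32 counts, and 0.173, 0.202 and 0.111 in siAATF, from 5, 1 and 2 counts. Its log2 fold change of -6.15 ± 0.72 SE was the lowest of the 37 genes (adjusted p = 8.24e-05, edgeR with Benjamini-Hochberg adjustment). Itga1 (α1, which prefers basement membrane collagen, chr13:115089632-115238500), the most abundant of the class per length, had 54.6, 70.1 and 97.6 CPM in siControl and 38.2, 67.6 and 32.1 in siAATF. The groups overlapped and the difference did not pass the test (-0.70 ± 0.41 SE, adjusted p = 0.217, edgeR with Benjamini-Hochberg adjustment), but was -1.04 and called without siAATF library 2.

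The remaining collagen receptors, named after their values were seen, were at few counts. Itga10, the chondrocyte collagen receptor, was counted 2, 6 and 4 times in siControl and 24, 6 and 12 times in siAATF, with 34.5% of its exon bases shared with Gm42957, and its log2 fold change of -2.47 ± 0.98 SE was -1.14 without siControl library 2 and -3.03, then called, without siControl library 1. Itga2 (α2, of platelets and epithelia) had 3.21, 4.83 and 11.2 CPM in siControl and 0.242, 0.605 and 5.27 in siAATF. Its log2 fold change of -1.68 ± 1.01 SE became -4.14 and passed the test without siAATF library 3, and was -0.88 without siControl library 3. Fibroblast and stellate genes moved beside this class, with 4 of 7 called lower, none higher, all 7 detected in both groups and sums of 733 to 1167 CPM in siControl and 303 to 458 in siAATF. Their part in it was not tested.

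Among the 4 laminin receptor subunits, 2 fell and the median was -1.44. Itga6 (α6, a laminin receptor of epithelia and endothelium, chr2:71617284-71687115) fell by 4.37 on the log2 scale (SE 0.51, adjusted p = 8.25e-05, edgeR with Benjamini-Hochberg adjustment), from 32.1, 12.1 and 17.3 CPM in siControl to 1.00, 0.807 and 1.16 in siAATF. Itga3 (α3, chr11:94935300-94967627), the most abundant of the class per length in siControl but below Itga7 in siAATF, had 15.3, 31.4 and 37.4 CPM in siControl and 7.56, 8.67 and 15.9 in siAATF. Although it was called (-1.37 ± 0.45 SE, adjusted p = 0.0332, edgeR with Benjamini-Hochberg adjustment), its highest siAATF library lay above its lowest siControl library. The call was lost without siControl library 2 or 3, or without siAATF library 1 or 2, where the adjusted p of edgeR with Benjamini-Hochberg adjustment was 0.0866, 0.219, 0.0922 and 0.0717. The log2 fold changes were then -1.31, -1.05, -1.15 and -1.22. By limma-voom it was -1.36, with an adjusted p of 0.0513 after Benjamini-Hochberg adjustment.

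Itga7 (α7, the laminin receptor of muscle), named after its values were seen, was 1 of 2 tested genes whose siAATF libraries all lay higher. It had 3.21, 7.25 and 7.25 CPM in siControl, from 4, 3 and 13 counts, and 9.32, 15.5 and 17.6 in siAATF, from 270, 77 and 318 counts. The log2 fold change of 1.30 ± 0.50 SE did not pass the test (adjusted p = 0.0655, edgeR with Benjamini-Hochberg adjustment) and was -0.58 with libraries scaled to mouse library size alone. Without siAATF library 1 it was 1.56 and called. Itgb4 (β4, the hemidesmosome subunit that pairs with α6) was counted 5, 0 and 3 times in siControl and 18, 3 and 19 times in siAATF (-1.50 ± 0.96 SE, not called), with -0.64 without siControl library 1. Endothelial markers moved beside Itga6, with 4 of 6 called lower, none higher, all 6 detected in both groups and sums of 294 to 418 CPM in siControl and 33.1 to 127 in siAATF. Of 4 liver sinusoidal endothelial genes, Lyve1 and Fcgr2b were called lower and Clec4g higher (3.48 ± 0.97 SE), with sums of 149 to 262 and 66.4 to 146 CPM. Clec4g had 8, 0 and 0 counts in siControl. Without 1 library its log2 fold change ran from 2.56 to 11.2, and its call could be lost. Of 5 cholangiocyte and epithelial genes, Epcam and Spp1 were called lower and none higher. The call of Epcam could be lost without 1 library, with log2 fold changes of -3.32 to -2.29. Spp1 (osteopontin), which is also among the matrix ligands below, had 2271, 1469 and 1114 CPM in siControl and 43.1, 36.3 and 36.6 in siAATF, while the other 4 genes summed to 38.5, 16.9 and 27.9 CPM in siControl and 31.6, 41.3 and 41.4 in siAATF, with overlap. The part of these cells in Itga6 was not tested.

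Itgb1 (β1, chr8:129412135-129459681), the partner of most collagen, laminin and fibronectin receptor α chains, had 318, 278 and 317 CPM in siControl and 124, 83.9 and 103 in siAATF. It fell by 1.55 on the log2 scale (SE 0.41, adjusted p = 0.0111, edgeR with Benjamini-Hochberg adjustment) and missed the threshold without siControl library 3 (adjusted p = 0.0547, same test). Its siControl libraries lay close together, and no siAATF library reached them.

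The RGD and fibronectin receptor subunits, 8 of 9 tested, had a median of -1.34, and 4 of them fell. Itgb3 (β3, the partner of αIIb on platelets and of αv, chr11:104498826-104561302) had 20.9, 60.4 and 35.7 CPM in siControl and 5.59, 2.62 and 3.66 in siAATF. It fell by 3.19 on the log2 scale (SE 0.47, adjusted p = 0.000339, edgeR with Benjamini-Hochberg adjustment). Itgb5 (β5, the vitronectin-binding partner of αv, chr16:33650035-33769708), the most abundant of the class per length, had 185, 118 and 163 CPM in siControl and 90.6, 70.2 and 111 in siAATF. Its groups did not overlap, yet the log2 fold change of -0.79 ± 0.39 SE did not pass the test (adjusted p = 0.15, edgeR with Benjamini-Hochberg adjustment).

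Of the others in this class, named after their values were seen, Itga9 (α9, a receptor for tenascin and VCAM-1) fell by 2.14 on the log2 scale (SE 0.38), from 92.3, 77.3 and 128 CPM to 27.8, 20.4 and 19.9. Itga5 (α5, the main fibronectin receptor chain) fell by 1.37 (SE 0.36), from 136, 150 and 131 CPM to 56.4, 54.7 and 50.5. Itga2b (αIIb, of megakaryocytes and platelets) fell by 1.32 (SE 0.42), and its call was lost without siControl library 2 (-1.05) or 3 (-1.47), without siAATF library 1 (-1.22) or 2 (-1.18), and with libraries thinned to the smallest mouse total (-2.32). Itgav (αv), whose heterodimers release latent TGF-β, had 41.8, 24.2 and 26.2 CPM in siControl and 18.8, 18.8 and 21.5 in siAATF (-0.66 ± 0.35 SE, not called). Itgb8 (β8, another activator of latent TGF-β with αv) was counted 2, 2 and 6 times in siControl and 5, 6 and 2 times in siAATF (-2.90 ± 1.14 SE, not called), which was -4.20 and called without siAATF library 2. Itga8 (α8, of contractile stromal cells) had a log2 fold change of -0.24 ± 0.70 SE. Summed platelet and megakaryocyte genes, of which 3 of 4 tested fell, were at 32.9 to 89.4 CPM in siControl and 5.65 to 12.5 in siAATF beside Itga2b and Itgb3, and their part in these values was not tested.

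**Figure D3:**
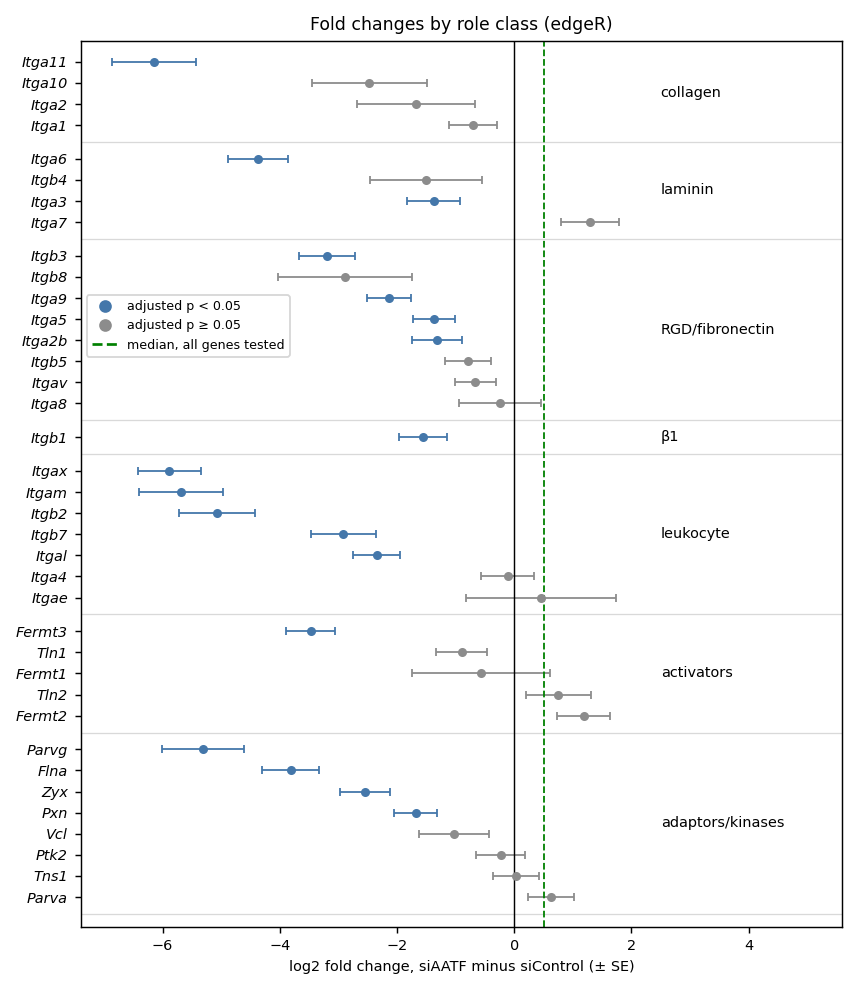
Log2 fold change of siAATF against siControl (± SE, edgeR, 3 libraries per group) for the 37 tested genes by role class, blue where the adjusted p was under 0.05, with the median of all genes tested at 0.50 as a dashed line. The 18 called genes lie between -1.32 and -6.15, and 6 genes have values above 0, none of them called.

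The make-up of integrin RNA within a library does not depend on how libraries are scaled. It does depend on the gene lengths, which were taken in full. Itgam had 70.0% of its exon bases shared with Gm49368, where reads may go uncounted. Its share and that of the leukocyte subunits may thus be too low. Counts per kilobase of the leukocyte subunits were 26.3%, 29.6% and 29.3% of all integrin counts per kilobase in siControl and 3.15%, 4.88% and 7.99% in siAATF. The RGD and fibronectin subunits made up 38.8%, 36.6% and 35.4% in siControl and 53.6%, 52.1% and 53.5% in siAATF. The laminin subunits went from 3.92% ± 0.210 to 6.34% ± 1.80 (SD, n = 3 each), also without overlap. The collagen subunits (3.76% ± 1.06 and 5.35% ± 2.49) and Itgb1 (27.0% ± 1.30 and 29.9% ± 4.39) overlapped between the groups.

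Ratios between classes, added after the data were seen, set the leukocyte subunits against the matrix receptors. Leukocyte subunits stood at 6.70, 7.97 and 7.09 times the laminin subunits in siControl and at 0.735, 0.688 and 1.05 times in siAATF. Against collagen subunits the ratio was 10.2, 7.28 and 6.34 in siControl and 0.788, 0.594 and 2.09 in siAATF. In both ratios every siAATF library was below the lowest siControl library. Laminin over collagen subunits was 1.11 ± 0.359 in siControl and 1.31 ± 0.606 in siAATF, overlapping, a difference that changed sign without siAATF library 3.

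Among the 18 α subunits, 6 had a larger share in every siAATF library, 4 a smaller one and 8 overlapped. Itgae, 1 of the 6, had 2 siControl counts in all, so counting error alone could hide an overlap there. By full gene length, Itga5 held the largest share in both groups, 29.0%, 29.9% and 22.8% in siControl and 40.7%, 35.5% and 31.9% in siAATF. Itgam held the next in siControl, at 19.4%, 18.9% and 20.5%, and 0.377%, 0.583% and 2.68% in siAATF. Itga7 had 0.714%, 1.51% and 1.32% in siControl and 7.04%, 10.5% and 11.6% in siAATF. By full gene length, these values show the myeloid chain as the second α chain of the siControl libraries and as a minor one in siAATF, while the α7 share was larger there. Since 70.0% of the exon bases of Itgam were shared with another gene, its order against Itga5 in siControl was not settled. Itga1 went from 5.67% ± 1.07 to 12.2% ± 4.83, Itgav from 3.78% ± 1.50 to 8.15% ± 0.502 and Itga4 from 1.39% ± 0.150 to 4.37% ± 1.80. Itgax, Itga11 and Itga6 had smaller shares in every siAATF library.

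Among the 8 β subunits, Itgb1 and Itgb5 made up nearly all β RNA in siAATF. Itgb5 had 29.4%, 21.0% and 26.3% in siControl and 43.5%, 46.8% and 51.0% in siAATF. Itgb2 had 21.6%, 23.5% and 21.0% in siControl and 0.964%, 0.767% and 3.74% in siAATF. Itgb1 overlapped between the groups, at 44.8% ± 0.865 and 48.3% ± 5.42. Every share without overlap gave the smallest two-sided exact permutation p of 0.1, which cannot pass 0.05, and 26 subunits were compared.

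**Figure D4:**
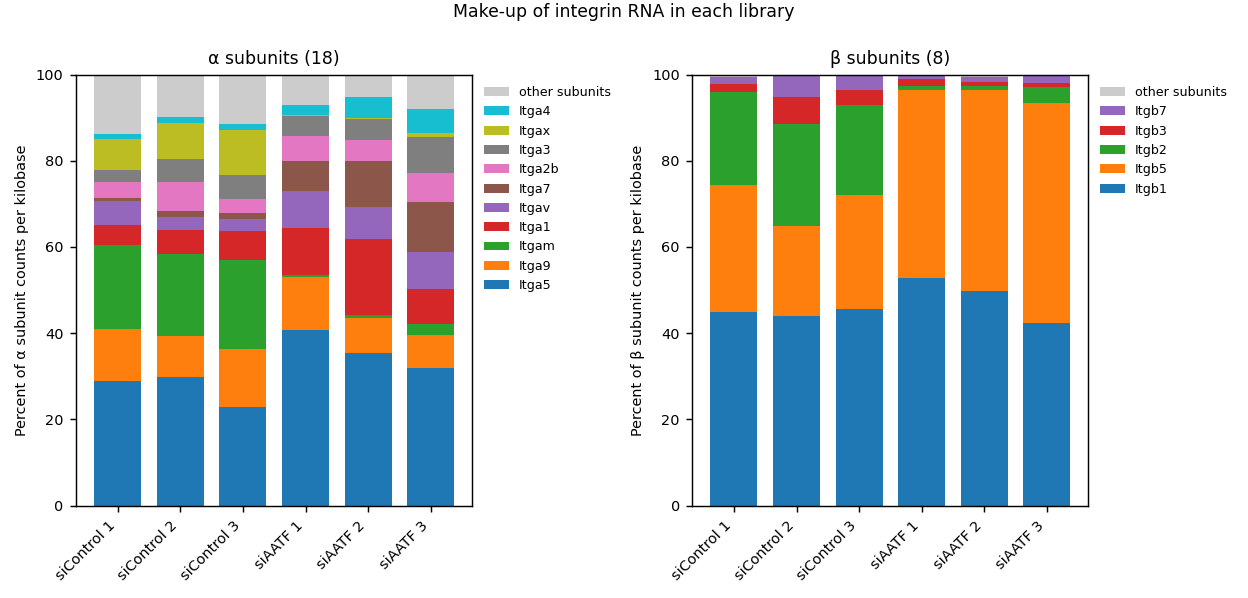
Percent of α subunit (left) and β subunit (right) counts per kilobase held by each subunit in each library, with the less abundant subunits pooled in gray. Itgam and Itgb2 take a visible part of the 3 siControl bars and little of the 3 siAATF bars, where Itga7 and Itgb5 take more.

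Of the 5 activators that bind β tails, 1 fell, which is near the 14.4% of all genes called lower, and the median was -0.57. Fermt3 (kindlin-3, the kindlin of blood cells, chr19:6976326-6996837) had 70.7, 58.0 and 49.1 CPM in siControl and 3.69, 4.03 and 8.04 in siAATF. It fell by 3.48 on the log2 scale (SE 0.43, adjusted p = 0.000104, edgeR with Benjamini-Hochberg adjustment). Fermt2 (kindlin-2, the kindlin of most solid tissues, chr14:45696252-45767575), the most abundant activator per length, had 61.0, 140 and 115 CPM in siControl and 174, 285 and 258 in siAATF. The lowest siAATF library exceeded the highest siControl library, but the log2 fold change of 1.19 ± 0.45 SE did not pass the test (adjusted p = 0.062, edgeR with Benjamini-Hochberg adjustment) and was -0.70 when libraries were scaled to mouse library size alone. Without siAATF library 1 it was 1.38 and called. By level per length, Fermt2 was first among the 37 genes in siAATF (55.9 ± 3.40 TPM, the counts per kilobase scaled to 1000000 per library), without overlap with the next gene, and in place 6 in siControl (120 ± 49.2 TPM).

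Tln1 and Tln2, the talins, and Fermt1 (kindlin-1, of epithelia) are named after their values were seen. Tln1 had 234, 254 and 210 CPM in siControl and 72.8, 179 and 123 in siAATF, without overlap (-0.90 ± 0.44 SE, not called), and was called at -1.20 without siAATF library 2. Tln2 had 4.01, 12.1 and 7.81 CPM in siControl and 8.76, 20.6 and 8.10 in siAATF (0.76 ± 0.56 SE, not called). Fermt1 reached 3 counts over the siControl libraries and 32 over the siAATF libraries, a ratio of 0.709 after scaling with an exact 95% counting interval of 0.222 to 3.62.

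Of the 9 adaptors and kinases, 8 were tested and 4 fell, with a median of -1.36. Flna (filamin A, which crosslinks actin and binds β tails, chrX:73267067-73293426), the most abundant of them per length in siControl but below Parva, Tns1, Zyx, Pxn and Ptk2 in siAATF, had 245, 345 and 329 CPM in siControl and 33.6, 16.1 and 15.3 in siAATF. It fell by 3.81 on the log2 scale (SE 0.49, adjusted p = 0.00014, edgeR with Benjamini-Hochberg adjustment). Parvg (γ-parvin, the parvin of blood cells, chr15:84208921-84227179) had 20.1, 9.66 and 16.2 CPM in siControl and 0.311, 0 and 0.666 in siAATF, where the 0 allows up to 3 counts, or 0.605 CPM. It fell by 5.31 (SE 0.71, adjusted p = 0.00017, edgeR with Benjamini-Hochberg adjustment), and by 5.90 without siAATF library 3. Both were lower in every siAATF library than in any siControl library.

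The other adaptors are named after their values were seen. Zyx (zyxin, recruited to adhesions under tension) fell by 2.55 (SE 0.43), from 95.5, 191 and 109 CPM to 21.9, 16.3 and 28.2. Pxn (paxillin, a scaffold of early adhesions) fell by 1.68 (SE 0.37), from 65.8, 84.6 and 75.3 CPM to 22.4, 17.3 and 30.1. Vcl (vinculin, which reinforces the talin to actin link) had 7.23, 12.1 and 9.48 CPM in siControl and 5.42, 6.66 and 1.72 in siAATF (-1.03 ± 0.60 SE, not called), with 39.7% of its exon bases shared with Ap3m1 on the opposite strand. The scaffold and kinase genes that stayed closest to 0 were Tns1 (tensin 1, 0.03 ± 0.38 SE), Ptk2 (focal adhesion kinase, -0.23 ± 0.42 SE) and Parva (α-parvin, 0.63 ± 0.39 SE), and the sign of Tns1 turned in 9 of its alternatives. Ilk, the kinase-like core of the complex with parvins, shared 98.7% of its exon bases with Taf10 and Rrp8 on the opposite strand. Of the 1116 genes in the table with all exon bases shared, 99.1% had 0 counts, so the 0 of Ilk was not read as absence of its RNA. Smooth muscle markers moved beside Flna and Zyx, with all 4 genes called lower and sums of 458 to 800 CPM in siControl and 4.22 to 70.9 in siAATF, and their part in them was not tested. The siAATF sums were 70.9 in library 1 and 6.05 and 4.22 in libraries 2 and 3. The calls of Tagln and Myh11 could be lost without 1 library, and Acta2 then ran from -7.41 to -4.18.

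Several adaptors belong to families of paralogues, and the share of each within its family, per length, was compared after the data were seen. Fermt2 held 40.4%, 65.0% and 64.6% of kindlin counts per kilobase in siControl and 97.1%, 98.1% and 96.0% in siAATF, with Fermt3 at 42.9% ± 14.4 and 2.74% ± 1.03. Parva held 44.9%, 48.6% and 57.1% of the parvins in siControl and 91.3%, 94.8% and 95.5% in siAATF, where Parvb was at 5.67% ± 2.34 and Parvg at 0.471% ± 0.438. Lims2, 1 of the PINCH proteins, which bind integrin-linked kinase, went from 26.5% ± 17.7 to 88.0% ± 4.27. In each of these 3 families a single paralogue held at least 85.1% of the RNA in every siAATF library.

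Tensins and talins also differed in their shares. Tns3 went from 36.7% ± 3.15 to 11.3% ± 5.04 and Tns2 from 24.9% ± 3.52 to 45.6% ± 10.3, while Tns1 overlapped. Tln2 went from 2.22% ± 0.998 to 6.30% ± 1.79 of talin RNA, so Tln1 remained the main talin in both groups. Of 14 paralogues, 5 had a larger and 7 a smaller share in every siAATF library, and each of these gave the smallest two-sided exact permutation p of 0.1.

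**Figure D5:**
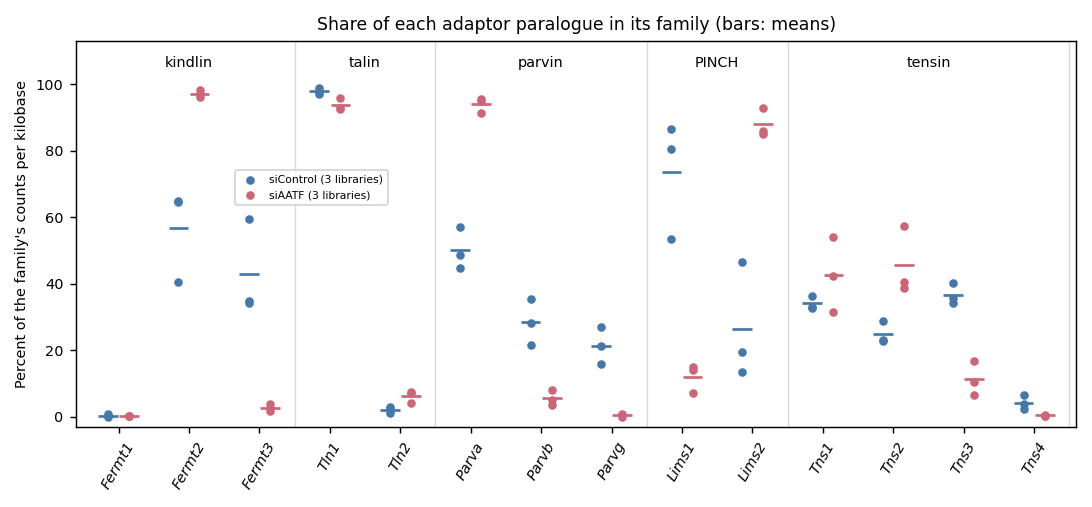
Percent of each family's counts per kilobase held by each kindlin, talin, parvin, PINCH and tensin gene in 3 siControl and 3 siAATF libraries, with bars at the means. Fermt2, Parva and Lims2 lie at or above 85.1% in siAATF, and Tns3 lies lower there than in siControl.

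The level per length, taken over the full gene length, places the genes among each other within a group. In siControl the order began with Itgb1 (296 ± 27.2 TPM), apart from the next, followed by Itgb5 (170 ± 34.1), Itgb2 (145 ± 4.98), Flna (135 ± 29.4), Zyx (124 ± 49.5) and Fermt2, in which neighbours overlapped. In siAATF, Fermt2 was followed by Itgb1 (22.8 ± 10.7 TPM), Itgb5 (21.9 ± 8.25), Parva (16.04 ± 6.25), Tln1 (11.1 ± 1.87) and Itga5 (9.98 ± 3.22), again with overlap between neighbours. Itgb2 moved from place 3 to place 20 (0.882 ± 0.832 TPM) and Itga11 to the last place (0.0261 ± 0.0100 TPM).

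Other genes of the adhesion pathway, taken from 3 lists, were counted in the same fit. Of 39 further adhesome genes, 23 fell and 2 rose. The lowest p in each direction were those of Evl, an actin-elongation factor of the Ena/VASP family (-4.24 ± 0.46 SE), and Tgfb1i1 (Hic-5, a paxillin relative of contractile cells, -4.01 ± 0.44 SE), and of Lims2 (2.72 ± 0.61 SE) and Kank1 (1.34 ± 0.38 SE), which binds talin at the rim of adhesions. The call of Kank1 was lost without siControl library 1 (1.12) and without siControl library 3 (1.55). Lims2 had 24.9, 4.83 and 7.25 CPM in siControl and 50.4, 61.7 and 147 in siAATF, and its log2 fold change was 3.72 without siControl library 1.

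Of 29 matrix ligands, 18 fell and 5 rose, and the share that rose was near the 17.6% of all genes called higher. Thbs1 (thrombospondin 1, -7.63 ± 0.62 SE) and Tnc (tenascin C, a ligand of α9β1, -7.25 ± 0.64 SE) had the lowest p of those that fell. Tnc had 114, 181 and 152 CPM in siControl and 1.73, 0.403 and 0.444 in siAATF, and -8.34 as its log2 fold change without siAATF library 1. Vtn (vitronectin, a ligand of αvβ5 made by hepatocytes, 3.96 ± 0.85 SE) and Fgg (fibrinogen γ chain, a ligand of αMβ2 and αIIbβ3, 2.83 ± 0.85 SE) led those that rose, with Vtn at 743, 215 and 203 CPM in siControl and 4397, 3467 and 10253 in siAATF. Without siControl library 1 the value of Vtn was 4.84, and without siAATF library 3 that of Fgg was 1.78. Fgg was not called without siControl library 2 (2.66) or without siControl library 3 (2.65). The count of ligands that rose was 2 without siControl library 2, 1 without siControl library 3 and 3 without siAATF library 3. Hepatocyte markers, given above, moved in the same direction as Vtn and Fgg, and their part in these values was not tested.

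Of 8 ligands on cell surfaces, 7 were tested, 4 fell and none rose. Vcam1, the ligand of α4β1 on activated endothelium, fell by 4.08 on the log2 scale (SE 0.55), from 67.4, 43.5 and 89.8 CPM to 3.04, 1.41 and 7.16, with a value of -4.76 without siAATF library 3. Icam2, an endothelial ligand of αLβ2, fell by 3.80 (SE 0.48), from 19.3, 21.7 and 32.4 CPM to 2.59, 1.01 and 1.44. Both ligands of leukocyte integrins thus had siAATF libraries below every siControl library.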

How the data were processed

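Bulk RNA of 6 libraries, 3 per group, had been prepared with a SMART-Seq kit. The authors trimmed reads with Cutadapt, aligned them with STAR 2.7.11 (submitters' notes) to the joined human and mouse genomes (GRCm39 for mouse), dropped reads mapping to several places or both species, and deposited raw counts per gene from featureCounts 2.0.1 (GENCODE vM33 basic), with the gene length and positions in other columns. Whether counting used strand is not given in the sources used here. Groups were taken from the labels, columns were matched by library name, and 0 columns of per-sample values were left unassigned.

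Of 56884 mouse identifiers, 56323 were named from GENCODE M39. The human table was read for library totals only (62753 genes, 1 gene broken over 3 lines left out). Counts of genes with a total of at least 10 were tested with edgeR 4.0.16 (quasi-likelihood, TMM, R 4.3.3, group as the only term, Benjamini-Hochberg over 18018 genes, called at an adjusted p under 0.05). CPM are TMM-scaled. TMM factors were 1.77 to 1.97 in siControl and 0.419 to 0.681 in siAATF. Ratios and shares of single genes within a library were compared by two-sided exact permutation tests, for which 3 against 3 libraries allow no p below 0.1. Intervals cover counting error only. The labels do not say that the libraries came from separate mice, so p-values measure the spread between these libraries.

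Members and lists were chosen with earlier results of these data known, so no p is given for a sum, share or ratio over a list, nor adjusted over a list. In each class, the member most abundant per length as the mean over all libraries, the called member with the largest fold change and any member called higher are named by rule, with the 2 lowest p in each direction for pathway lists. On simulated counts for this comparison, 132 of 189 genes changed by 3 log2 units (69.8%) and 25 of 16830 unchanged genes were called, with 17019 genes run. Thus 25 false calls stood beside 132 true ones. Only 200 genes were changed, in both directions alike, so the simulation did not test the scaling where many genes differ. Alternatives were DESeq2 1.42.0, limma-voom (limma 3.58.1), other scalings and filters, a replicate block, thinning, the study's rule and leaving out each library. Figures used Python 3.11.15 and matplotlib 3.10.9. Protein sequences and human integrin genes were not analysed here.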

Additional observations from a re-analysis of the deposited data

How the results depend on the processing

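How libraries were scaled changed directions and counts. With mouse library size alone the median of all genes moved from 0.50 to -1.30 and 40.4% of genes were called lower and 4.15% higher. With all human and mouse counts it moved to 4.66, with 0.661% lower and 87.2% higher. Numbers of adhesion genes called lower went from 18 to 30 with mouse library size alone, 1 with all counts, 15 by the study's rule and 10 with at least 10 counts in every library, where 17 of them were tested, and numbers called higher from 0 to 1 (DESeq2, limma-voom, at least 10 in every library), 2 (no filter) and 25 (all counts). Leaving out 1 library gave 15 to 19 lower and 0 to 2 higher. The median of -1.50 was -1.76 (upper quartile), -3.28 (mouse library size), 2.74 (all counts), -1.74 (filterByExpr) and -2.003 (thinned to the smallest mouse total), and -1.73 to -1.28 without 1 library. Leukocyte subunits lower and higher were 1 and 3 with all counts, and 5 lower without any 1 library. Collagen subunits lower were 2 (the study's rule, DESeq2, filterByExpr, thinned), 4 (mouse library size), 0 (all counts, at least 10 in every library) and 1 to 2 without 1 library, and 2 were higher with all counts. Laminin subunits lower were 1 (the study's rule, limma-voom, at least 10 in every library), 0 (all counts) and 1 to 2 without 1 library, and higher 3 (all counts), 1 (no filter) and 0 to 1 without 1 library. Further adhesome genes lower were 36 (mouse library size), 0 (all counts), 15 (at least 10) and 20 to 22 without 1 library, and higher 1 (the study's rule, upper quartile, thinned), 0 (mouse library size, at least 10), 27 (all counts) and 1 to 2. Matrix ligands lower were 5 (all counts), 11 (at least 10) and 16 to 19 without 1 library, and higher 1 (mouse library size), 12 (all counts) and 1 to 5. Cell surface ligands lower were 7 (mouse library size), 0 (all counts), 1 (at least 10) and 3 to 4, and 5 were higher with all counts. The summed adhesion genes differed by 486 CPM of all counts (448 to 531 without 1 library) and by -3964 CPM of mouse counts only. The leukocyte share differed by -23.1 points (-24.4 to -22.0 without 1 library).

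With all human and mouse counts as library size, log2 fold changes turned positive for Itga1 (3.49), Itga2 (2.43), Itga10 (2.03), Itga3 (2.89), Itgb4 (2.57), Itga2b (3.00), Itga5 (2.93), Itga8 (4.02), Itga9 (2.12), Itgav (3.55), Itgb3 (1.27), Itgb5 (3.44), Itgb8 (1.20), Itgb1 (2.74), Itga4 (4.06), Itgal (1.85), Itgb7 (1.40), Tln1 (3.30), Fermt1 (3.56), Fermt3 (0.75), Vcl (3.25), Pxn (2.64), Zyx (1.88), Ptk2 (4.05), Flna (0.60), Tgfb1i1 (0.29), Icam2 (0.51) and Vcam1 (0.10). With mouse library size alone they turned negative for Itga7 (-0.58), Itgae (-1.28), Tln2 (-1.17), Fermt2 (-0.70), Parva (-1.17), Tns1 (-1.84) and Kank1 (-0.49). Tns1 was also below 0 by DESeq2 (-0.057), RLE (-0.058), upper quartile (-0.25), filterByExpr (-0.043) and thinning (-0.26). Leaving out 1 library turned the sign of Itga8 (-0.71 to 0.34), Itga4 (-0.36 to 0.26), Itgae (-0.42 to 6.18, the latter with no siControl count left), Ptk2 (-0.55 to 0.30) and Tns1 (-0.22 to 0.25). It also turned the share differences, in percentage points, of Itga2 (-0.562 to 0.409), Itga10 (-0.904 to 0.206), Itgb4 (-0.0313 to 0.138) and Itgb6 (-0.0265 to 0.00926), and the laminin over collagen difference (-0.143 to 0.426), which was -0.0151 from plain counts. Beyond the scaling itself, the cause was not tested.

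Replicate numbers did not pair the libraries, with correlations of same-numbered deviations of 0.110, 0.154 and -0.0237. A replicate block called 16.2% of all genes lower and 21.4% higher. With it, 20 adhesion genes were called lower and 2 higher, 2 collagen subunits were lower, 1 laminin subunit was higher and Tns1 was at -0.026. The 2 called higher were Itga7 and Fermt2, and Itga2 and Itgb8 were the genes added to those called lower. Mouse depth in siControl limits genes at few counts, and p-values of 0.1 are the lowest that these permutation tests could give.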
